A study of Mus musculus with 10 samples.

Results

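The cytochrome P450 enzymes of families 1, 2 and 3, together with their electron donor Por, were followed in mouse hepatocytes across the liver lobule and across 4 times of day. Members were all gene entries whose symbol starts with Cyp1a, with Cyp2 followed by a subfamily letter, or with Cyp3a, plus Por. This gave 50 of 14812 gene entries, 49 P450 entries and Por. Of these, 37 had a mean of at least 3 CPM (UMI counts scaled to a fixed library total of 1e6) and were tested. The other 13 held between 0 and 107 UMIs (distinct tagged molecules) over all cells. They were Cyp1a1, Cyp2b9, Cyp2c39, Cyp2c65, Cyp2c66, Cyp2d12, Cyp2d34, Cyp2d37-ps, Cyp2g1, Cyp2j9, Cyp3a16, Cyp3a41a and Cyp3a57, and Cyp3a16 had no UMI in any library.

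Microsomal P450 enzymes insert an oxygen atom into drugs, pollutants, steroids and fatty acids, and so make them easier to conjugate and excrete. Each of them receives its electrons from a single shared flavoprotein, P450 oxidoreductase, the product of Por. Many P450 genes are known to be most active around the central vein of the lobule, downstream of the blood flow, and several respond to the xenobiotic receptors Ahr, Nr1i3 (CAR) and Nr1i2 (PXR). Cyp2a4, Cyp2b9, Cyp3a41a, Cyp3a41b and Cyp3a44 are known as genes with higher levels in female than in male mouse liver, under the control of growth hormone.

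Libraries were made from hepatocytes of C57BL/6 male mice, 3 months old, kept on regular chow with free access, without other treatment than ketamine and xylazine anaesthesia before collagenase perfusion and a Percoll gradient. Zeitgeber time (ZT) counts the hours of the light-dark cycle, with ZT0 by convention at lights on. There were 3 libraries at ZT0 (A, B and C), 2 at ZT6 (A and B), 3 at ZT12 (A, B and C) and 2 at ZT18 (A and B), with 18378 cells in all. How many mice a library came from is not in the labels, so p-values measure only the spread between libraries, which may be technical.

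Library totals ran from 1454623 to 7144803 UMIs and the median cell of a library from 1588 to 2662. The members took 1.23% of all UMIs. Hepatocyte markers summed to 39386 to 75035 CPM. Endothelial markers summed to at most 15.9 CPM, with Clec4g and Ptprb at 0. Macrophage markers summed to at most 6.28 CPM, with Clec4f, Csf1r, C1qa and C1qb at 0. Cholangiocyte markers summed to 117.8 CPM in ZT0A and to 5.8 to 44.0 CPM in the other 9 libraries. Both ZT18 libraries stood apart: entries annotated as pseudogenes summed to 3318 and 3517 CPM there, against 830 to 1141 CPM in the other 8. In the library labelled ZT18A, 64 of 1678 cells (3.81%, exact 95% interval 2.95% to 4.85%) had a UMI of Xist, against 1 UMI in the other 9 libraries together, although the mice are labelled male. ZT18B had the highest sum of erythroid markers, 360.5 CPM against 72.2 to 107.9 CPM elsewhere. Both ZT18 libraries also carry an index column of their own (column 4), so time and index cannot be told apart there.

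Most members lie in gene clusters made of close copies. In GENCODE M21 (GRCm38), 14 of the Cyp2c members span chromosome 19 from 39006940 to 40187286, 9 Cyp2d members span chromosome 15 from 82370527 to 82794452, and 9 Cyp3a members lie on chromosome 5 between 137892933 and 146114978. Reads of a 3′ library fall near the end of the transcript, where copies can be alike: of 48 members with a transcript, 30 shared at least 1 window of 50 bases in their last 500 bases with another gene. For Cyp3a41a and Cyp3a41b 100% of such windows were shared, for Cyp2c40 74.3%, for Cyp2c67 and Cyp2c68 51.2% each, and for Cyp2a4 44.3%. Levels of these genes are therefore uncertain against their copies. Por, Cyp1a2, Cyp2c29, Cyp2c38, Cyp2c70 and Cyp2f2 shared none, and Cyp3a11 shared 0.443%.

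The upstream sequences of 2 close pairs and of Por are shown because the values below turn on these genes. Each is the 250 bases before the RefSeq start (GRCm38.p6), 5′ to 3′ on the gene's strand. Capitals mark the bases at which the pair Cyp2a5 and Cyp2a4 differ in their alignment (6 differences), those at which Cyp3a41b and Cyp3a44 differ (13 differences), and, in Por, the matches to GCGTG.
Cyp2a5: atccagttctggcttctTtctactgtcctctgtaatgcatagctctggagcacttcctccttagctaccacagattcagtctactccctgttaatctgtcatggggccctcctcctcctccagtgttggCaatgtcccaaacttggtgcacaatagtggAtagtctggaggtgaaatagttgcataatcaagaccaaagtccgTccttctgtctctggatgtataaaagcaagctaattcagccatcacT
Cyp2a4: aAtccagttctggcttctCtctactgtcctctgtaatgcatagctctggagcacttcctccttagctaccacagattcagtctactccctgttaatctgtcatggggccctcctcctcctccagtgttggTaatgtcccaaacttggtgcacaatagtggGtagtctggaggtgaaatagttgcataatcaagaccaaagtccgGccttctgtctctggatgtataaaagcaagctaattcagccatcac
Cyp3a41b: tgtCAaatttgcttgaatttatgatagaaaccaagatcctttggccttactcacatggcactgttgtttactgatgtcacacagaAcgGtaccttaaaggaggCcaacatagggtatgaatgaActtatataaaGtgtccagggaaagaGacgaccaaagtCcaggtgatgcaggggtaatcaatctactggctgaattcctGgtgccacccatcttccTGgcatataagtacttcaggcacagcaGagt
Cyp3a44: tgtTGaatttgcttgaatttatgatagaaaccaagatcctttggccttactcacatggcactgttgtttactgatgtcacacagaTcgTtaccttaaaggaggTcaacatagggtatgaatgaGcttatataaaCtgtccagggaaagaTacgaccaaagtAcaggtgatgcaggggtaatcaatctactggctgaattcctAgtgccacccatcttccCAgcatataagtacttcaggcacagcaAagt
Por: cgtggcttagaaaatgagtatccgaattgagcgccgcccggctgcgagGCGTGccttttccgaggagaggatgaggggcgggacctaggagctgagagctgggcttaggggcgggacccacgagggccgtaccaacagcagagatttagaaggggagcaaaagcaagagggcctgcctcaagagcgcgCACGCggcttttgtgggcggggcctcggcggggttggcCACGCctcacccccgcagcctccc
Cyp2a5 (chr7:26835089-26835338, plus strand) and Cyp2a4 (chr7:26306942-26307191, plus strand) were 97.6% identical over this stretch. Among their 6 differences, the A near the start of Cyp2a4 and the T at the end of Cyp2a5 are unpaired ends. The stretches are offset, with TATAAA beginning at -29 in Cyp2a5 and at -28 in Cyp2a4. Cyp3a41b (chr5:145584731-145584980, minus strand) and Cyp3a44 (chr5:145805875-145806124, minus strand) were 94.8% identical. The Por sequence lies at chr5:135688895-135689144 on the plus strand. This is inside the GENCODE gene, which spans 135670040 to 135735326, so the stretch precedes a start within the gene.

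The same stretch was available for 42 members and was searched on both strands for short motifs. TATAAA occurred in 25 of 42 (59.5%), against 12.4% of all 32851 promoters in the table. AGGTCA, a half-site bound by nuclear receptors, occurred in 11 of 42 (26.2%), against 14% of all. GCGTG, the core of the sequence bound by Ahr, occurred in 5 of 42 (11.9%; Cyp1a1, Cyp2b10, Cyp2c68, Cyp2j9 and Por), against 28.2% of all. Neither TTATGTAA nor TTACGTAA, which the clock output factors Dbp, Tef and Hlf bind, occurred in a member, against 0.819% and 0.113% of all. CACGTG, the E-box, occurred in Cyp2j6 alone, against 6.02% of all. A match is a description of these letters and not a binding site.

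Por, the electron donor of all the P450 enzymes here, was the only tested member with a mean above 20 CPM that was called among times. Its level was 37.2, 70.2 and 94.2 CPM in ZT0 libraries A, B and C and 117.2 and 161.5 CPM in ZT6 libraries A and B. It was 349.9, 270.8 and 529.6 CPM at ZT12 (A, B and C) and 100.6 and 109.9 CPM at ZT18 (A and B). All 3 ZT12 libraries lay above the other 7, and all 3 ZT0 libraries lay below the other 7. The difference between ZT12 and ZT0 was 2.37 ± 0.30 (log2, SE), a 5.18-fold rise (edgeR adjusted p = 5.2e-04). The fitted 24-h wave had an amplitude of 1.20 (log2) and its maximum at ZT 11.5 (edgeR adjusted p = 0.00177). Por kept its calls for the rhythm, for any difference among times and for ZT12 against ZT0 under every alternative run, with amplitudes from 1.06 to 1.35.

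Por was also higher on the pericentral side. Within a library, 7 periportal and 6 pericentral landmark genes, none of them a member, gave an order of cells that was cut into 3 equal zones: pericentral, middle and periportal. In the pericentral zone Por measured 53.3 to 714.8 CPM (median 174.5, 10 libraries) and in the periportal zone 26.0 to 355.2 CPM (median 77.1). The periportal level was lower in 10 of 10 libraries, by 2.13-fold (log2 difference -1.09 ± 0.07; edgeR adjusted p = 4.1e-14). The rise with time was seen at both ends, with an amplitude of 1.21 in the pericentral zone (edgeR adjusted p = 4.6e-04) and of 1.18 in the periportal zone (edgeR adjusted p = 9.1e-04).

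**Figure D1:**
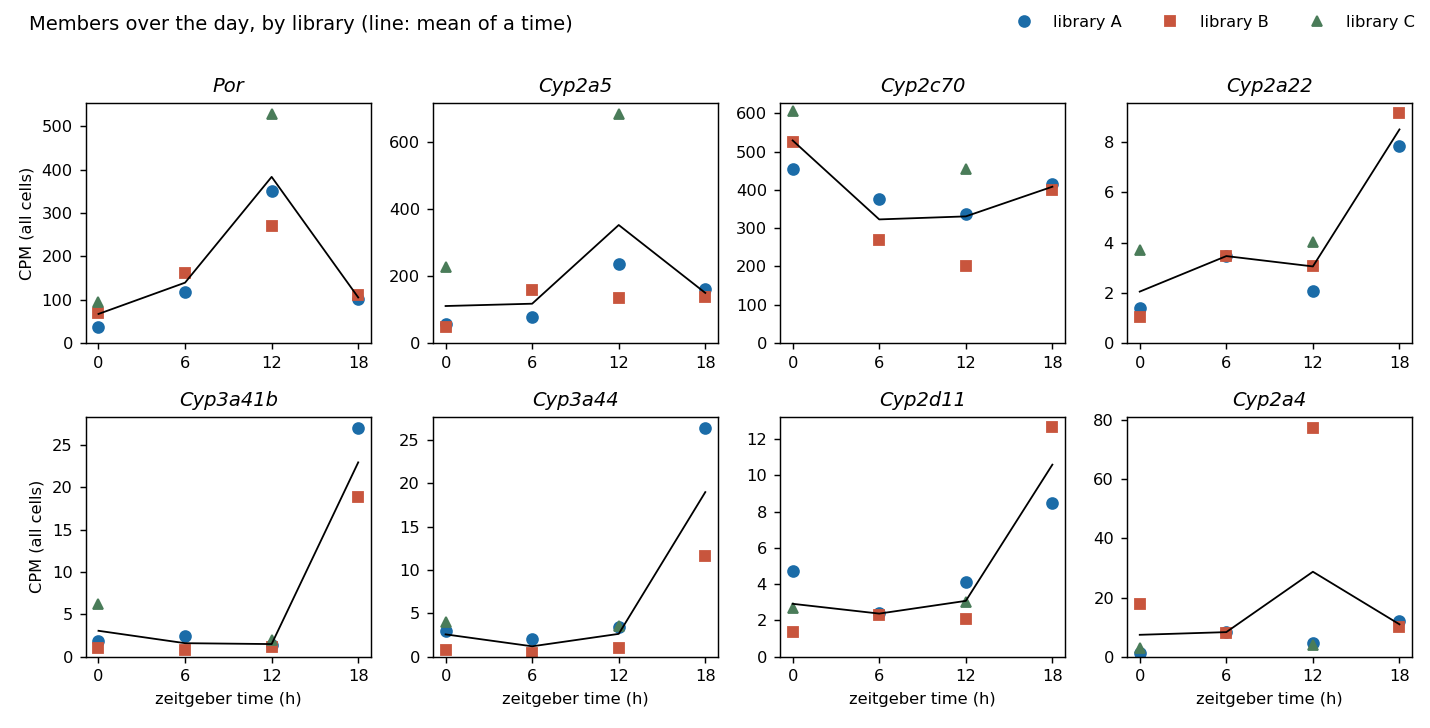
Level (CPM over all cells, y axis) of 8 members at 4 zeitgeber times (x axis, h), 1 point per library with its letter as shape and the mean of each time as a line. Por is highest in the 3 ZT12 libraries, from 270.8 to 529.6 CPM, and Cyp3a41b, Cyp3a44, Cyp2d11 and Cyp2a22 are highest in the 2 ZT18 libraries.

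More members were called between zones than among times, as were more of all genes (24.6% against 6.58%). The zone test pairs the zones within each of 10 libraries and the time tests have no such pairing. These counts therefore do not compare the sizes of the differences. Of the 37 tested members, 30 differed between the outer zones (edgeR adjusted p under 0.05), against 24.6% of all genes tested. Of these, 23 were higher pericentrally (12.9% of all genes) and 7 periportally (11.7%). The median difference was -0.73 (log2 periportal minus pericentral) over the tested members and -0.01 over all genes. A difference of at least 8-fold was found for 10 of 37 members, 9 pericentral and 1 periportal, against 0.694% of all genes. Of the 30 calls, 23 were kept under every alternative run, and the 7 that were not are Cyp2b10, Cyp2c44, Cyp2d22, Cyp3a13, Cyp3a25, Cyp3a41b and Cyp3a44.

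The Cyp2c subfamily, whose enzymes oxidise drugs and arachidonic acid, held most of the steep pericentral genes. Of its 12 tested members 11 were higher pericentrally, and Cyp2c44 was slightly higher periportally (0.18 ± 0.06; edgeR adjusted p = 0.0338). Cyp2c38 measured 12.1 to 64.5 CPM (median 30.9) in the pericentral zone and 0 to 0.927 CPM in the periportal zone. That is 461 UMIs against 4 over all libraries, and the periportal level was at or under the floor of 3 UMIs in each library (log2 difference -6.36 ± 0.29; edgeR adjusted p = 1.4e-18). Its periportal level is thus close to the limit of detection at this depth.

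Cyp2c37 fell from 158.4 to 755.1 CPM (median 315.0) in the pericentral zone to 3.01 to 21.1 CPM (median 9.29) in the periportal zone, with no overlap of the libraries (log2 difference -5.17 ± 0.14; edgeR adjusted p = 6.0e-25). Cyp2c29 fell from a median of 1634 CPM (843.1 to 4086) to 88.2 CPM (33.1 to 285.0), a difference of -4.14 ± 0.14 (edgeR adjusted p = 2.0e-22). Cyp2c50 fell from a median of 1086 CPM (880.7 to 1849) to 98.4 CPM (48.8 to 184.3), a difference of -3.53 ± 0.12. For these 3 genes the lowest pericentral library lay above the highest periportal one. Cyp2c69 and Cyp2c54 had differences of -3.46 ± 0.15 and -3.30 ± 0.14. Cyp2c69 measured 17.6 to 193.9 CPM (median 38.3) pericentrally and 0 to 20.4 CPM (median 2.68) periportally, so its libraries overlapped although each was higher pericentrally. Cyp2c54 measured 202.2 to 702.2 CPM (median 314.9) and 15.1 to 66.9 CPM (median 27.4). The remaining Cyp2c members ranged from -2.98 (Cyp2c55) to -0.54 (Cyp2c70).

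Cyp2e1, which oxidises ethanol, acetaminophen and other small molecules, was the second most abundant member. It measured 1750 to 6930 CPM (median 3484) in the pericentral zone, 284.4 to 3649 CPM (median 968.0) in the middle zone and 71.1 to 353.0 CPM (median 138.2) in the periportal zone. The outer zones did not overlap, and the difference was -4.38 ± 0.12 (20.9-fold; edgeR adjusted p = 5.9e-25). Cyp1a2, which metabolises caffeine and aromatic amines and is a classical Ahr target, fell from a median of 806.1 CPM (531.3 to 2106) to 62.3 CPM (33.4 to 122.9). Its difference was -3.64 ± 0.11 (12.5-fold; edgeR adjusted p = 5.9e-24). Cyp2a5, the coumarin 7-hydroxylase, fell from a median of 362.0 CPM (126.1 to 1794) to 12.02 CPM (2.73 to 26.3), a difference of -4.70 ± 0.16 (26.1-fold; edgeR adjusted p = 3.4e-22).

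Cyp3a11, the main testosterone 6-beta-hydroxylase and the most abundant member, was pericentral with a shallower slope. It measured 4486 to 10208 CPM (median 5819) in the pericentral zone and 1309 to 3249 CPM (median 2036) in the periportal zone. These ranges did not overlap, and the difference was -1.52 ± 0.10 (2.87-fold; edgeR adjusted p = 4.9e-14). Cyp3a25 measured 383.5 to 1042 CPM (median 495.4) pericentrally and 319.6 to 751.0 CPM (median 416.1) periportally, with a difference of -0.17 ± 0.06 (edgeR adjusted p = 0.0463). This call did not survive the omission of several single libraries. Cyp3a13, which is also found in the intestine, leaned the other way (0.27 ± 0.07; edgeR adjusted p = 0.0024), and did not keep that call under every alternative.

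**Figure D2:**
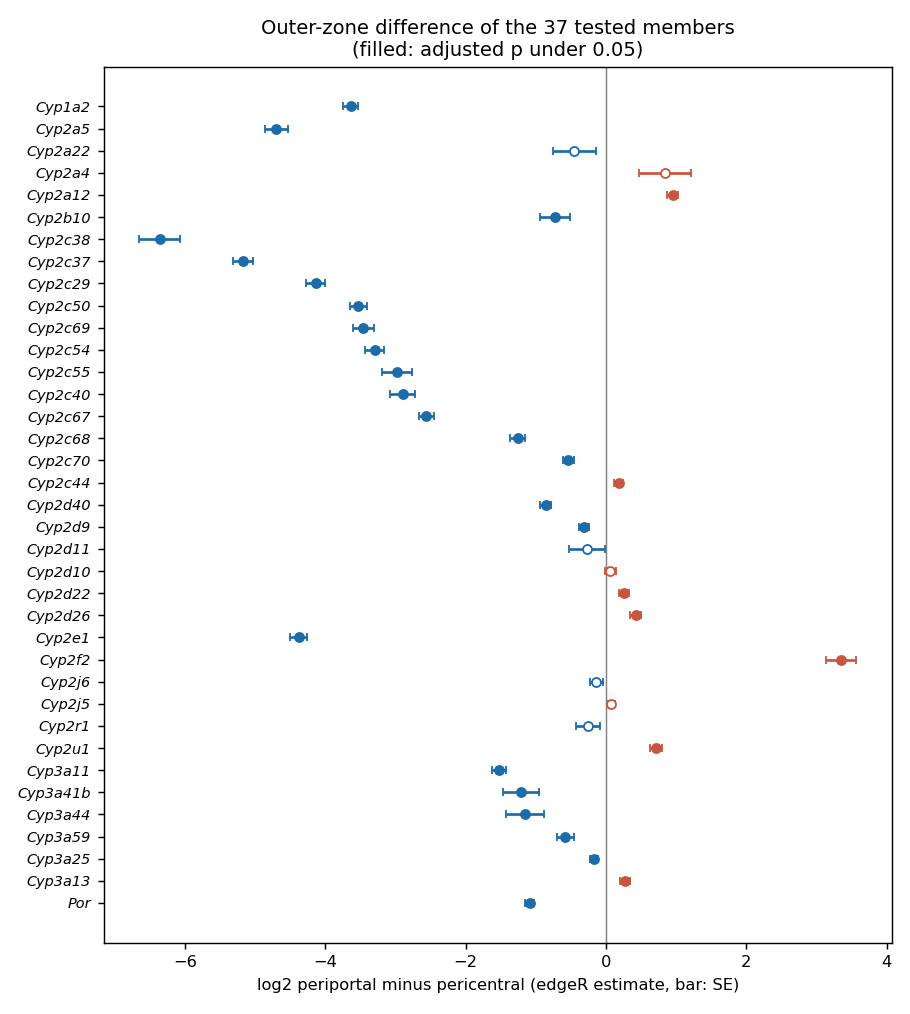
Outer-zone difference (x axis, log2 periportal minus pericentral, edgeR estimate with SE bars) of the 37 tested members (y axis, in subfamily order). Filled points are the 30 with an adjusted p under 0.05: Cyp2c38 lies farthest to the pericentral side at -6.36 and Cyp2f2 farthest to the periportal side at 3.35.

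Cut into 8 layers, the steep pericentral members did not share 1 profile. Layer 1 is the most pericentral. Cyp2c37 had 668.6 CPM in layer 1 and 322.0 CPM in layer 2 (means of 10 libraries), a ratio of 2.08, and Cyp2c38 (2.01) and Cyp2a5 (1.86) were similarly restricted. For Cyp2c29 and Cyp2e1 the same ratio was 1.27 and 1.34. Cyp2c29 had 2471, 1413 and 96.8 CPM in layers 1, 3 and 7, and Cyp2e1 had 4692, 2489 and 160.9 CPM. The fall from layer 1 to layer 8 was 132-fold for Cyp2c37, 77.9-fold for Cyp2a5, 49.1-fold for Cyp2e1, 44.6-fold for Cyp2c29, 31.8-fold for Cyp1a2 and 3.92-fold for Cyp3a11. Cyp1a2, Cyp2a5, Cyp2c29, Cyp2c37, Cyp2c38, Cyp2c50, Cyp2c54, Cyp2c69, Cyp2e1 and Cyp3a11 were highest in layer 1 in 10 of 10 libraries. Cyp2c70 instead had its highest mean in layer 3, at 484.9 CPM, and fell to 271.7 CPM in layer 8. These layers share libraries and were not tested against each other.

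**Figure D3:**
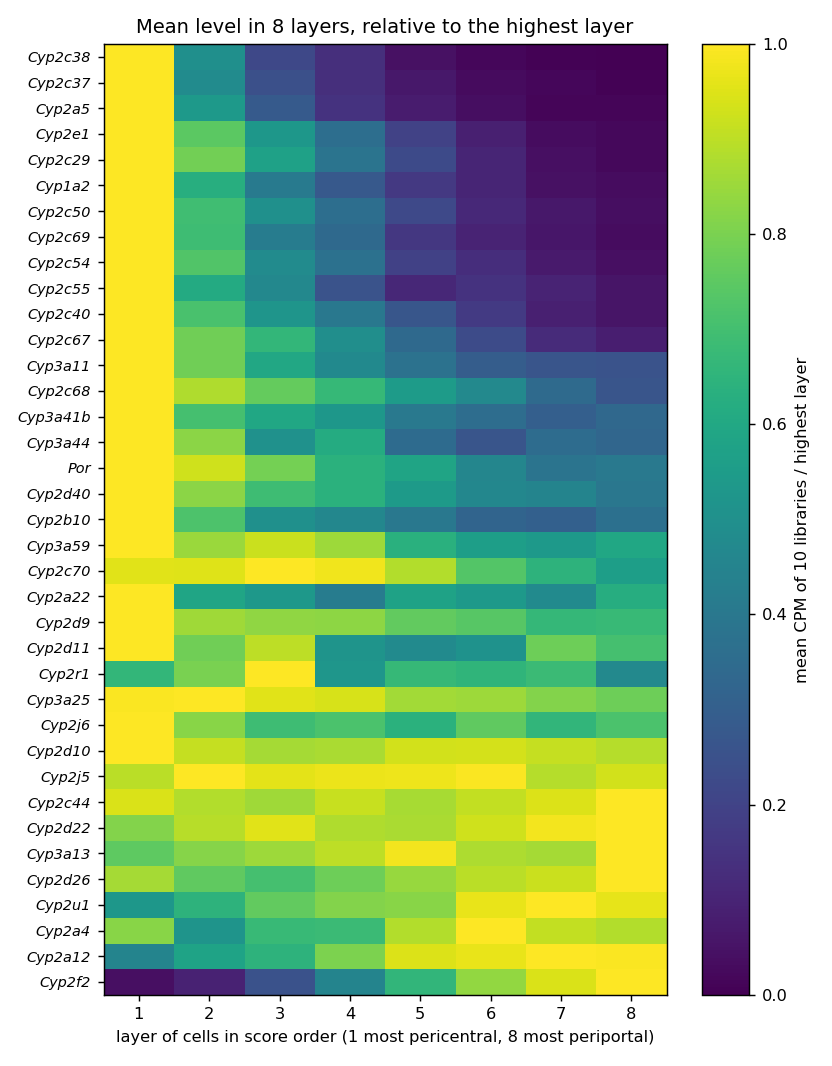
Mean CPM of 10 libraries in 8 layers of cells (x axis, 1 most pericentral to 8 most periportal), divided by the highest layer of each gene (colour), for the 37 tested members ordered by their outer-zone difference (y axis). Cyp2c37, Cyp2c38 and Cyp2a5 drop most between layers 1 and 2, while Cyp2f2 rises to layer 8.

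Cyp2f2, which activates naphthalene and other aromatic compounds, was the 1 steep periportal member. It measured 24.8 to 362.8 CPM (median 129.8) in the pericentral zone, 281.1 to 1330 CPM (median 728.8) in the middle zone and 809.0 to 1704 CPM (median 1137) in the periportal zone. The outer zones did not overlap (3.35 ± 0.21, 10.2-fold; edgeR adjusted p = 7.4e-15). It was also the only member called in the test of the middle zone against the mean of both outer zones (0.75 ± 0.14 on the log2 scale; edgeR adjusted p = 0.00164), against 0.438% of all genes (0.359% higher and 0.0786% lower in the middle). No member was lower there by edgeR, DESeq2 or limma-voom, with 0 at an unadjusted p under 0.05. On that scale the middle zone lay closer to the periportal level, and it was not the highest zone on average. The call was lost with odd-numbered landmarks alone (edgeR adjusted p = 0.149). At an unadjusted p under 0.05 there were 9 members in this test, and the alternatives called between 0 and 8.

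The other periportal calls were small. Cyp2a12, a steroid 7-alpha-hydroxylase, rose from a median of 163.6 CPM pericentrally to 280.7 CPM periportally (0.95 ± 0.08; edgeR adjusted p = 4.8e-12; higher in 10 of 10 libraries). Cyp2u1, a fatty acid hydroxylase, rose from 60.8 to 81.9 CPM (medians; 0.71 ± 0.09; edgeR adjusted p = 1.1e-07). Cyp2d26 (0.42 ± 0.08), Cyp3a13, Cyp2d22 (0.25 ± 0.07) and Cyp2c44 differed by less than 0.5 on the log2 scale. Without TMM scaling, by library size alone, 4 members were called periportal instead of 7. Median levels over the lobule were nearly flat for the epoxygenase Cyp2j5, at 326.7, 329.3 and 315.8 CPM from the pericentral to the periportal zone (0.07 ± 0.06; edgeR adjusted p = 0.443), with ranges of 235.0 to 428.0, 263.7 to 505.4 and 242.9 to 445.5 CPM. Cyp2d9, a testosterone 16-alpha-hydroxylase of male mice, measured 468.6 to 875.9 CPM (median 681.1) pericentrally and 390.3 to 672.5 CPM (median 484.4) periportally (-0.31 ± 0.07; edgeR adjusted p = 0.00106), with overlapping libraries. The 7 members without a zone call were Cyp2a4, Cyp2a22, Cyp2d10, Cyp2d11, Cyp2j5, Cyp2j6 and Cyp2r1.

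Because copies may share reads, each subfamily was also tested as 1 sum. The sums of 1A (-3.63 ± 0.11), 2E, 2C (-2.40 ± 0.09), 3A (-1.30 ± 0.09) and 2A (-0.64 ± 0.12) were higher pericentrally, and those of 2F (3.36 ± 0.21) and 2U (0.72 ± 0.09) periportally. The 2B, 2D, 2J and 2R sums did not pass the threshold, with 2D at -0.09 ± 0.07 (edgeR adjusted p = 0.339). None of the 11 P450 subfamily sums had a 24-h rhythm (edgeR adjusted p from 0.236 for 2F to 0.987 for 2R). By edgeR's unadjusted p under 0.05 there was 1, the 2F sum.

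Among the 37 tested members, a 24-h rhythm was called for 3 (Por, Cyp3a41b and Cyp3a44), against 5.14% of all genes, and for 9 at an unadjusted p under 0.05. With the library letter as a block, 6 were called, against 8.41% of all genes. Any difference among the 4 times was called for 5, with Cyp2a22 and Cyp2d11 added, against 6.58% of all genes. Between ZT12 and ZT0 only Por passed the threshold, against 3.44% of all genes (1.74% higher and 1.7% lower at ZT12). With edgeR 0 members were lower at ZT12, with 3 at an unadjusted p under 0.05, 1 by DESeq2 and 0 by limma-voom. None of the most abundant enzymes passed the rhythm threshold in the main fit. Cyp2c70, with an amplitude of 0.47 (edgeR adjusted p = 0.104), passed it in some alternatives. These were DESeq2 (adjusted p = 0.0225), the library letter as a block (edgeR adjusted p = 0.0303), the index column as a block (edgeR adjusted p = 0.0272) and the periportal zone alone (edgeR adjusted p = 0.0206). The fitted amplitude was 0.10 for Cyp3a11, 0.28 for Cyp2e1, 0.56 for Cyp2c29, 0.39 for Cyp2f2 and 0.34 for Cyp1a2 (edgeR adjusted p = 0.928, 0.792, 0.552, 0.237 and 0.808), with a median of 0.25 over all genes. The fitted range over the 4 times was 2.44-fold for Cyp2c29 and 2.26-fold for Cyp1a2, also short of the threshold (edgeR adjusted p = 0.44 and 0.328).

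Cyp3a11 measured 4921, 2997 and 5651 CPM at ZT0 (A, B and C), 3345 and 3789 CPM at ZT6, 5823, 2997 and 4415 CPM at ZT12 and 3612 and 2778 CPM at ZT18. Cyp2e1 measured 733.2, 990.3 and 3125 CPM at ZT0, 1618 and 1813 CPM at ZT6, 1863, 1161 and 3567 CPM at ZT12 and 956.0 and 1411 CPM at ZT18. In each case libraries of 1 time differed by more than the means of the times did. The 17 members with a pericentral difference over 2-fold summed to 6065 to 14624 CPM, and the 3 highest libraries were ZT0C, ZT12C and ZT12A. The 6 pericentral landmarks were highest in the same 3 libraries (9407 to 11185 CPM, against 5466 to 9130 CPM elsewhere). In the pericentral zone alone the 17 members still ranged from 11911 to 27362 CPM, with ZT12C, ZT0C and ZT12A highest. The part of cell sampling in these library differences was not tested, and in sums over cells more cells of a zone and more RNA per cell cannot be told apart.

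At ZT18 3 members were higher than at ZT6, against 3.79% of all genes called (2.35% higher and 1.45% lower). With edgeR 0 members were lower, with 1 at an unadjusted p under 0.05 and 0 by DESeq2 or limma-voom. The 3 (Cyp3a41b, Cyp3a44 and Cyp2d11) and Cyp2a22 passed the limit of 3 CPM only through ZT18: over the other 8 libraries their means were 2.12, 2.26, 2.84 and 2.78 CPM. The number of calls among them is therefore not independent of the limit. Cyp3a41b measured 27.0 and 18.9 CPM in ZT18 libraries A and B and 2.44 and 0.773 CPM in ZT6 libraries A and B. At ZT0 it was 1.92, 1.04 and 6.25 CPM and at ZT12 1.38, 1.12 and 2.01 CPM (A, B and C). Both ZT18 libraries lay above the other 8 (3.73 ± 0.62 over ZT6, 13.3-fold; edgeR adjusted p = 0.00578).

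Cyp3a44 measured 26.4 and 11.6 CPM at ZT18 against 2.03 and 0.386 CPM at ZT6, 2.97, 0.743 and 4.05 CPM at ZT0 and 3.44, 0.980 and 3.51 CPM at ZT12 (3.80 ± 0.72, 13.9-fold; edgeR adjusted p = 0.0133). Cyp2d11 measured 8.49 and 12.7 CPM at ZT18 against 2.44 and 2.32 CPM at ZT6 (2.23 ± 0.54, 4.69-fold; edgeR adjusted p = 0.0359). It was 4.71, 1.34 and 2.70 CPM at ZT0 and 4.13, 2.10 and 3.01 CPM at ZT12. Cyp2a22 differed among the 4 times (edgeR adjusted p = 0.0324), with 7.86 and 9.16 CPM at ZT18. It was 1.40, 1.04 and 3.71 CPM at ZT0, 3.45 and 3.48 CPM at ZT6 and 2.06, 3.08 and 4.02 CPM at ZT12. In all 3 genes both ZT18 libraries lay above the other 8.

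Without ZT18A the rhythm of Cyp3a41b (edgeR adjusted p = 0.0744) and of Cyp3a44 (0.128) missed the threshold. Cyp3a41b kept its difference among the 4 times under every alternative in which it was tested. Cyp3a44 kept that call in 18 of 19 alternatives, Cyp2d11 in 14 of 19 and Cyp2a22 in 13 of 19. Cyp2a22 missed the threshold, among other settings, without ZT12A and in pericentral cells alone. Without both ZT18 libraries these 4 members fell under the limit and were not tested. Without ZT6A or without ZT6B, which leaves 1 library at ZT6, edgeR called 0 members higher at ZT18, with 3 and 4 at an unadjusted p under 0.05. Without ZT18A it called 1 and without ZT18B 2. When ZT6A, ZT6B, ZT18A or ZT18B was left out, the log2 difference ran from 3.34 (without ZT6B) to 4.86 (without ZT6A) for Cyp3a41b. For Cyp3a44 it ran from 3.13 (without ZT18A) to 5.52 (without ZT6A, where the remaining ZT6 library holds 1 UMI), and for Cyp2d11 from 1.88 to 2.50. Of the Cyp3a41b UMIs of ZT18A, 5 of 86 were in cells with a Xist UMI, and of the Cyp3a44 UMIs 6 of 84.

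Of the 13 members under the 3 CPM limit, 5 had both ZT18 libraries above the other 8 in CPM (Cyp2c39, Cyp2d12, Cyp2d34, Cyp3a41a and Cyp3a57) and 8 did not. The share of all genes with this order was not computed, so the count cannot be read as particular to the members. Cyp2c39 had only 5 and 7 UMIs at ZT18 and up to 9 elsewhere. Cyp3a41a had 10 and 6 UMIs at ZT18 and 0 to 7 elsewhere, and Cyp2b9 had 2 and 0 at ZT18 and 0 to 58 elsewhere. Per 1000 Cyp3a11 UMIs, the sum of Cyp3a41a, Cyp3a41b, Cyp3a44 and Cyp3a57 was 16.7 and 12.1 UMIs in ZT18 libraries A and B and 0.408 to 2.06 UMIs in the other 8. Per 1000 Cyp2d9 UMIs, the sum of Cyp2d11, Cyp2d12 and Cyp2d34 was 49.4 and 53.3 UMIs at ZT18 and 5.81 to 16.3 UMIs elsewhere. These 7 genes were picked after their values were seen, and Cyp3a41b and Cyp3a44 hold most UMIs of the first sum. Cyp2a4 per 1000 Cyp2a5 UMIs did not follow this order, with 73.6 and 72.7 at ZT18 and 5.86 to 570.8 elsewhere. By zone at ZT18, from pericentral to periportal, the first sum was 12.9, 16.4 and 16.2 UMIs per 1000 Cyp3a11 UMIs and the second 58.3, 38.1 and 57.3 UMIs per 1000 Cyp2d9 UMIs. The summed pseudogene entries were high in the same libraries, and the part of that difference in these values was not tested.

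**Figure D4:**
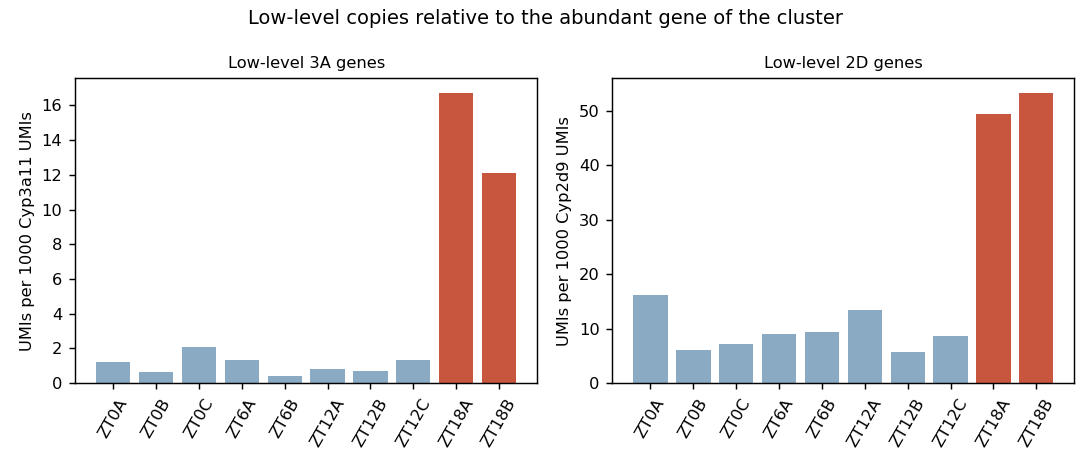
UMIs of low-level copies per 1000 UMIs of the abundant gene of their cluster (y axis) in each library (x axis): Cyp3a41a, Cyp3a41b, Cyp3a44 and Cyp3a57 against Cyp3a11 on the left, Cyp2d11, Cyp2d12 and Cyp2d34 against Cyp2d9 on the right. Both ZT18 bars stand above the other 8, at 16.7 and 12.1 on the left and 49.4 and 53.3 on the right.

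Cyp2a4, a steroid 15-alpha-hydroxylase, was the only member called in the test of an outer-zone difference that follows the time of day. The amplitude was 3.62 on the log2 scale (edgeR adjusted p = 0.0434). Of all genes 0.0336% were called, and 9 members had an unadjusted edgeR p under 0.05. Without both ZT18 libraries the outer-zone difference of Cyp2a4 had an amplitude of 0.20 and was not called. With the library letter as a block on that difference, 4 members were called (Cyp2a4, Cyp2c50, Cyp2c54 and Cyp2f2), against 0.347% of all genes. Its periportal minus pericentral difference on the log2(CPM + 1) scale was -0.38, 1.73 and 0.55 at ZT0 (A, B and C), 2.18 and 0.09 at ZT6 and 0.22, 1.73 and -2.04 at ZT12. At ZT18 it was -4.27 and -4.53, below the other 8 libraries. In UMIs, ZT18 libraries held 60 pericentral, 14 middle and 1 periportal, while the other 8 held 119, 274 and 383. Of the latter, ZT12B alone gave 75, 202 and 275, and the other 7 libraries held 44, 72 and 108. The call was lost without ZT18A (edgeR adjusted p = 0.872), without ZT18B (0.514) and without ZT12A (0.0593), and with DESeq2 and limma-voom. In a fit that let the zone difference vary by index column, chosen after seeing the data, the amplitude was 0.22 (edgeR adjusted p = 0.993).

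Its close copy Cyp2a5, with Cyp2g1 between them on chromosome 7, was pericentral in all 10 libraries, with differences from -7.10 to -3.79 on the same scale. Per 1000 Cyp2a5 UMIs, Cyp2a4 had 69.1 UMIs pericentrally and 30.3 periportally (from 1 UMI) at ZT18. At the other times it had 26.8 and 2455, and without ZT12B 11.9 and 1009. Periportally Cyp2a4 lay below Cyp2a5 in 5 of these 8 libraries. The 250 upstream bases of these copies differ only at the 6 places printed above, which include the unpaired ends of the offset stretches. They say nothing of sequence farther away. Over all cells Cyp2a4 measured 17.98 CPM in ZT0B and 77.3 CPM in ZT12B and 1.40 to 11.95 CPM in the other 8 libraries. Cyp2b9 (3.42 and 8.12 CPM, others at most 2.03), Cyp2c40 (129.3 and 119.0 CPM, others at most 99.3) and Cyp2c69 (78.8 and 89.7 CPM, others at most 51.8) were also highest in these 2 B libraries.

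**Figure D5:**
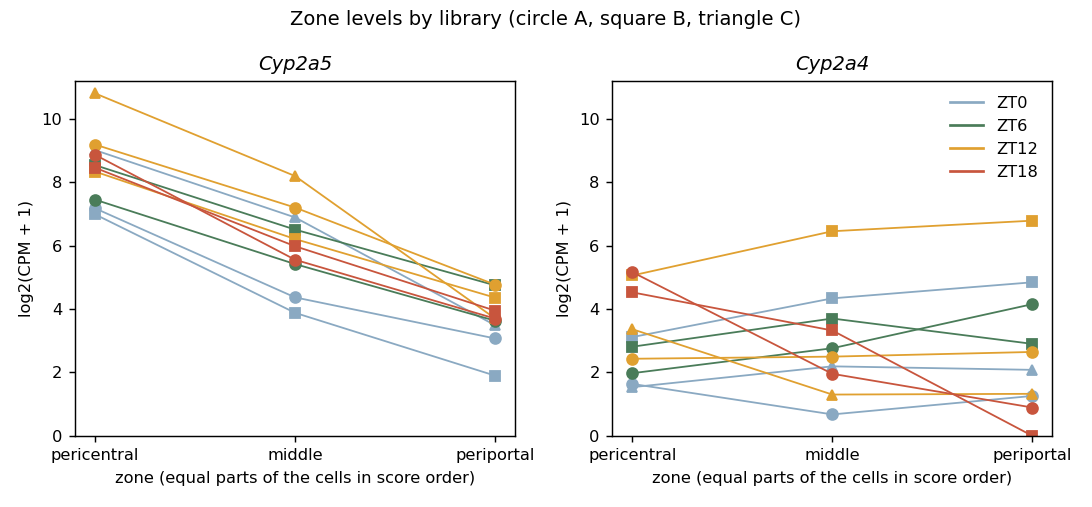
Level of Cyp2a5 (left) and Cyp2a4 (right) as log2(CPM + 1) (y axis) in the 3 zones (x axis), 1 line per library, with the time as colour and the library letter as marker. Cyp2a5 falls toward the periportal zone in all 10 libraries, while Cyp2a4 falls steeply in both ZT18 libraries and is highest periportally in ZT0B, ZT6A, ZT12A and ZT12B.

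Libraries of ZT0 and ZT12 with the same letter deviated together, so these times were also compared with the letter as a block, where 5.66% of all genes were called. Cyp2a5 measured 56.2, 49.3 and 226.4 CPM at ZT0 (A, B and C) and 236.5, 135.3 and 685.2 CPM at ZT12. It was higher at ZT12 in 3 of 3 pairs. The difference of 1.58 ± 0.28 passed the threshold with the block (edgeR adjusted p = 0.00454) and not without it (1.52 ± 0.57; edgeR adjusted p = 0.208). Cyp2c70 measured 454.5, 525.8 and 606.9 CPM at ZT0 and 338.2, 200.7 and 453.3 CPM at ZT12. It was lower at ZT12 in 3 of 3 pairs, with -0.89 ± 0.20 under the block (edgeR adjusted p = 0.0215) and -0.84 ± 0.25 without it (edgeR adjusted p = 0.0926). At ZT6 Cyp2c70 measured 376.9 and 268.9 CPM and at ZT18 416.5 and 400.2 CPM. In the periportal zone alone the fall of Cyp2c70 was -1.21 ± 0.25 (edgeR adjusted p = 0.0113). With the index column as the block, where 8.61% of all genes were called, 2 more members differed between ZT12 and ZT0. Cyp2a4 was 1.69 ± 0.27 higher (edgeR adjusted p = 0.00226; higher in 3 of 3 pairs) and Cyp2c68 differed by -0.55 ± 0.15 (edgeR adjusted p = 0.0377; lower in 3 of 3 pairs).

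Cyp2g1, best known from the nasal mucosa and under the 3 CPM limit over all cells, had 51 UMIs at ZT12 (11, 32 and 8 in libraries A, B and C) and 6 at ZT0 (1, 2 and 3). Scaled by library totals, that is a ratio of 14.8 (exact 95% interval 6.33 to 42.1, counting error only). It had 15 UMIs at ZT6 and 3 at ZT18. In the pericentral zone, ZT12 lay 3.71 ± 0.65 above ZT0 (log2; edgeR adjusted p = 0.00479). It passed the limit there only through ZT12, since the mean of the other 7 libraries was 1.73 CPM (4.43 CPM over all 10). With no limit on low counts the difference over all cells was 3.72 ± 0.62 (edgeR adjusted p = 1.2e-04). In that zone 6 members were called rhythmic (Cyp2a4, Cyp2d11, Cyp2g1, Cyp3a41b, Cyp3a44 and Por), against 2.87% of all genes, and Cyp2g1 and Cyp3a44 passed the limit through ZT12 and ZT18 alone. In the periportal zone there were 4 (Cyp2c70, Cyp3a41b, Cyp3a44 and Por), against 4.45%. There Cyp3a41b and Cyp3a44 passed the limit only through ZT18. At ZT0, ZT6 and ZT12 the periportal means were 1.36, 0.901 and 0 CPM for Cyp3a41b and 1.49, 0.601 and 2.36 CPM for Cyp3a44. The remaining low members held few UMIs; Cyp1a1, the inducible Ahr target, had 27 in all.

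Of 30 listed partner genes, all tested, 6 had a 24-h rhythm (5.14% of all genes): Alas1, Dbp, Tef, Hlf, Nr1d1 and Fmo2. The list includes the clock factors Dbp, Tef, Hlf and Nr1d1, so this number is not independent of how the list was chosen. Alas1, the rate-limiting enzyme of haem synthesis, which supplies the P450 cofactor, peaked at ZT 13.0 with an amplitude of 1.14 (edgeR adjusted p = 0.00435). The clock output factors Dbp, Tef and Hlf peaked at ZT 9.5, 10.9 and 12.6, around the ZT 11.5 of Por. Between the outer zones 13 partners differed (24.6% of all genes), 10 pericentral (12.9%) and 3 periportal (11.7%). The receptors Ahr (-2.33 ± 0.13) and Nr1i3 (-1.73 ± 0.09) and the electron carrier Cyb5a (-0.82 ± 0.07) were pericentral, as Por was, while the oestrogen receptor Esr1 was periportal (1.18 ± 0.14). Between ZT18 and ZT6 4 partners differed (3.79% of all genes). Dbp (-3.76 ± 0.34), Nr1d1 (-6.59 ± 0.73) and Nr1i3 (-1.28 ± 0.31) were lower at ZT18, and the flavin monooxygenase Fmo5 was higher (1.48 ± 0.35).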

How the data were processed

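The deposited files hold UMI counts per gene and cell, made by the authors with the 10x 3′ kit per the labels' protocols. Cell Ranger, mm10 and hg19 are named without role or version in the submitters' processing notes, and how reads shared by copies were counted is not given in the sources used here. One molecule is counted once whatever its length, so CPM carry no transcript length; levels of members that share sequence stay uncertain against their copies. Every cell passed limits of 1000 UMIs (minimum) and 35% mitochondrial UMIs (maximum); doublets were not called, and leaving out the top 5% of cells by UMIs was an alternative. The files number cells without barcodes, and no 2 columns held identical counts.

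The zone score of a cell was its mean z-score over 7 periportal landmarks (Pigr, Ftcd, Hal, Ass1, Ctsc, Asl, Hsd17b13) less its mean over 6 pericentral ones (Rgn, Lect2, Oat, Aldh1a1, Mgst1, Gulo). Across cells, scores of the odd and the even landmarks had r of 0.553 to 0.766 in each library. UMIs summed per library, or per library and zone, were tested with edgeR 4.0.16 (quasi-likelihood, TMM, at least 3 CPM, Benjamini-Hochberg over 8908 genes for time, 8928 for outer zones and 8911 for the middle, threshold 0.05). The rhythm test was a 2-df test of a 24-h cosine and sine, and its amplitude is the log2 distance from mean to peak. Zone tests had the library as a block. Alternatives used DESeq2 1.42.0 and limma 3.58.1. The tests were checked on simulated counts. Exact 95% intervals and the floor of 3 UMIs cover counting error only.

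Deviations of same-letter libraries of ZT0 and ZT12 correlated with r of 0.24, 0.43 and 0.48 across genes, and other letter pairs of these times with negative r. These letters coincide with index columns 3, 7 and 5 in the labels. Values by library or zone, or the lowest, median and highest, are given for members called among times or in the zone-dependent rhythm, the 10 with the largest outer-zone difference, the 10 of highest CPM, those called in the middle with at least 0.5, and Por. Members and lists were chosen with earlier results of these data known.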

Additional observations from a re-analysis of the deposited data

Results flagged for a closer look

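The outer-zone difference of Cyp2a4 changed over the 4 times (edgeR adjusted p = 0.0434, amplitude 3.62 on the log2 scale), as a test of the zone by time interaction. Cyp2a4 is a steroid 15-alpha-hydroxylase with a close copy, Cyp2a5. The change rests on the ZT18 libraries, where 60 UMIs were pericentral, 14 in the middle and 1 periportal, against 119, 274 and 383 at the other times. ZT12B alone gave 75, 202 and 275 of the latter, and in ZT0A and ZT12C the periportal level was lower than the pericentral one (-0.38 and -2.04 on the log2(CPM + 1) scale). Without both ZT18 libraries the amplitude was 0.20 (edgeR adjusted p = 1). The index column differs between ZT18 and the other times, so its part in this difference cannot be told apart from time.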

How the results depend on the processing

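For 29 results of single members 612 alternatives were counted. Of these, 561 kept direction and call, 48 missed the threshold and 3 missed it with a moved peak. Those 3 are the fits with the index column as a block for Cyp3a41b, Cyp3a44 and Cyp2a4. Zone calls were counted only for Por, the 10 members with the largest difference and the 10 of highest CPM. The zone calls of Cyp2b10, Cyp2c44, Cyp2d22, Cyp3a13, Cyp3a41b and Cyp3a44, each lost under some alternative, were thus not counted. With the index column as a block, which sets the ZT18 libraries apart by construction, the rhythm amplitudes of Cyp3a41b and Cyp3a44 were 0.84 and 0.65, with peaks at ZT 3.9 and 5.8 (edgeR adjusted p = 0.386 and 0.838). That block could not be fitted for any difference among times or for ZT18 against ZT6. With that block on the zone difference, added after the data were seen, the amplitude of Cyp2a4 was 0.22, with a peak at ZT 20.9 in place of 6.2. The causes were not tested, apart from what a setting removes by construction.

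For most settings below the share of all genes is not given, so a change in count cannot be read as particular to the members. Rhythmic members numbered 3 and became 5 with DESeq2, 7 without a filter on low counts and 1 with at least 20 CPM. They became 1 without both ZT18 libraries (33 members tested, since 4 fell under the limit) and 6 in pericentral cells alone (2.87% of all genes). With the index column as a block they became 7. These were Cyp2a4, Cyp2a5, Cyp2c40, Cyp2c68, Cyp2c69, Cyp2c70 and Por, without Cyp3a41b and Cyp3a44. Members that differ among times numbered 5 and became 14 without the filter, 1 with at least 20 CPM and 1 without both ZT18 libraries. Members higher at ZT12 than at ZT0 numbered 1 and became 4 without the filter, 3 with the index column and 2 in pericentral cells. Members lower at ZT12 numbered 0 and became 1 with DESeq2, 2 with the index column and 2 in periportal cells. Members higher at ZT18 than at ZT6 numbered 3 and became 5 without the filter and 0 with at least 20 CPM (edgeR, 2 at an unadjusted p under 0.05).

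With the library letter as a replicate block, 6 members were rhythmic (Cyp2a5, Cyp2c70 and Cyp2d11 added), 2 were higher and 1 lower at ZT12, and 4 had a zone-dependent rhythm. The block moved no other count of members by over 1.5 times. Same-letter pairs other than those of ZT0 with ZT12 had r of -0.04 to 0.11.

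Periportal calls fell from 7 to 4 by library size alone, and pericentral calls stayed between 22 and 23 when 1 library was left out. Members higher in the middle zone numbered 1 and became 3 by library size alone, with DESeq2, with limma-voom, without the top 5% of cells by UMIs and without both ZT18 libraries, 8 without the filter, 7 with smaller outer zones, 0 with odd-numbered landmarks (5 at an unadjusted p under 0.05), 2 with even-numbered ones and 4 in cells of at least 3000 UMIs. Members lower in the middle numbered 0 and became 1 without the filter. Zone-dependent rhythms numbered 1 and became 0 with DESeq2, limma-voom, at least 20 CPM, without the top cells and without both ZT18 libraries (6, 10, 6, 7 and 8 at an unadjusted p under 0.05). They became 7 without the filter, 2 with even-numbered landmarks, 4 in cells of at least 3000 UMIs and 2 with the index column.

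Leaving out 1 library gave 1 to 4 rhythmic members (1 without ZT18A) and 2 to 8 that differ among times (2 without ZT18A, 3 without ZT18B, 3 without ZT6B and 8 without ZT12B). It gave 1 to 2 higher (2 without ZT0C) and 0 lower at ZT12, 0 to 3 higher at ZT18 (0 without ZT6A or ZT6B) and 6 to 8 periportal calls. It gave 1 to 4 higher in the middle (4 without ZT18A, 3 without ZT12B, 2 without ZT0A, ZT0C or ZT6B). Zone-dependent rhythms numbered 0 without ZT12A, ZT18A or ZT18B (9, 7 and 8 at an unadjusted p under 0.05) and 2 without ZT0A or ZT0C. Subfamily sums kept 0 rhythmic and had 7 to 8 zone calls. Totals of 0 to 107 UMIs limit what can be said of members under 3 CPM.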
